A study of Mus musculus with 68 samples.

Results

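Hedgehog signalling was followed through 8 of its core genes, Ihh, Ptch1, Smo, Sufu, Hhip, Gli1, Gli2 and Gli3, in RNA sequencing counts of mesenchymal stromal cells grown from mouse long bones. The genes were taken by name as a pathway list, by a rule that uses no measured value, and all 8 were found among the 27179 genes of the table. The list was nonetheless chosen with earlier results of these data known. The cultures came from mice with the Prrx-1-Cre driver, whose recombinase is active in the limb bud mesenchyme. WT mice were Ezh2+/+ with that driver and Het mice were Ezh2fl/+ with it, so that every culture carried Cre and the Het cultures stood to lose 1 Ezh2 allele only in cells in which Cre had acted. Mice were 3 or 12 months old. At 3 months there were 4 cultures of WT (WT 3M: S3, S4, S5, S12) and 3 of Het (Het 3M: S8, S10, S14). At 12 months there were 4 of WT (WT 12M: S2, S6, S7, S13) and 6 of Het (Het 12M: S1, S9, S11, S15, S16, S17). The labels do not state whether a culture stands for 1 mouse, so the p-values measure the spread between cultures, which may be partly technical.

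Hedgehog ligands are secreted proteins that bind the receptor Patched. Without ligand, Patched holds the membrane protein Smoothened inactive and Gli proteins, retained by Sufu, are processed at the primary cilium into repressors. With ligand, Smoothened is released and full-length Gli proteins activate transcription, including that of Gli1, Ptch1 and Hhip, which makes these 3 genes the usual readouts of the pathway. In long bones Indian hedgehog, made by prehypertrophic chondrocytes of the growth plate, controls chondrocyte proliferation together with parathyroid hormone-related protein and directs osteoblast formation in the perichondrium. Ezh2 is the methyltransferase of Polycomb repressive complex 2, which methylates histone H3 on lysine 27, mostly at CpG-rich promoters.

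The promoters of the most and the least abundant member are shown first, with the CpG marked because Polycomb complexes are known to act mostly at CpG-rich promoters. The windows are the 250 bases before the annotated start site, taken from RefSeq for GRCm38.p6 and printed 5′ to 3′ on the gene's own strand, with every CpG in capitals. Smo has its window at chr6:29735247-29735496 on the plus strand and Ihh at chr1:74951673-74951922 on the minus strand.

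Smo: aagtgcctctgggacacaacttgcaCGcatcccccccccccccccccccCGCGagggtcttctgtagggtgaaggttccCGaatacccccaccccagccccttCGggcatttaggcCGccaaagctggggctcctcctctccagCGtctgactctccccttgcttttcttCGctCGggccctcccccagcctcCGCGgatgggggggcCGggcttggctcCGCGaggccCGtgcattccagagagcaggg

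Ihh: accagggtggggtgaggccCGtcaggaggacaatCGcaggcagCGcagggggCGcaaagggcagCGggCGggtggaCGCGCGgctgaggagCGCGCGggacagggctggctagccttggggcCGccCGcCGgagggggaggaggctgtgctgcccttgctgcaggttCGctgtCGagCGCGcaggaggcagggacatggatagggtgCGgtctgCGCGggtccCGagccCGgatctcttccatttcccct

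The Smo window held 15 CpG at 68.4% GC, and the Ihh window held 24 at 72.0% GC. Over the 14397 promoter windows of tested genes the median was 15 CpG and 59.6% GC. Gli1 had no window in the promoter table, and the windows of Ptch1, Gli2 and Hhip overlapped the annotated span of their own gene. Of the 7 members in that table, Ptch1 had the most CpG, 41, and Sufu the fewest, 8. The Gli binding site GACCACCCA, searched on both strands from 250 bases before to 50 bases after the start, was in 0 of these 7 windows and in 0.253% of the 32851 windows in the table. Its core, GACCACC, which the longer motif contains, was in 0 of the 7 and in 2.80% of all windows. The Gli1 promoter was not searched, and sequence outside these windows was not searched for any member.

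Depth ran from 13687876 to 28597221 counts per culture, and 14897 genes had enough counts to be tested. Ezh2 itself had a fitted log2 difference, Het minus WT, of -0.14 ± 0.44 (SE) at 3 months and -0.21 ± 0.37 at 12 months, and neither passed the adjusted threshold. The counts are per gene, so the loss of the floxed exons was not measured. Of the 12 stromal markers, 11 were above 1 CPM (counts per 1e6, TMM-scaled) in every culture. Sex-linked transcripts did not match the labelled sex in any of the 4 WT 12M libraries, while all 13 others matched. S2 and S13, labelled male, had Xist (363 and 295 CPM) and at most 0.523 CPM summed over 4 Y-linked genes. S6 carries a female label, yet its Y-linked sum was 114 CPM and its Xist level 0.192 CPM. S7, also labelled female, had Xist at 81.6 CPM, which fits its label, together with a Y-linked sum of 140 CPM, which does not. Results that rest on WT 12M rest on these libraries, and the sex term of the fit used their labels. By label, S3 and S4 of WT 3M were female and S5 and S12 male. S14 was the only female of Het 3M and S17 the only male of Het 12M, so the labelled sexes were not balanced between groups. A group of 3 cultures stood apart in cell type markers, and their member values are given with and without them where they matter. WT 12M S6 had 1176 CPM summed over 7 Schwann and neural crest markers, against at most 111 elsewhere. Het 12M S9 had 34220 CPM over 7 myeloid markers, against at most 2270 elsewhere. Het 12M S15 had the lowest sum of stromal markers, 8353 CPM, but WT 3M S12 was next at 10819 CPM. The 3 were named without a set cut-off. Other cultures were high on other lists, such as WT 12M S7 with 22093 CPM over 8 chondrocyte markers. Het 3M S8 and S10 differed from each other less than any other pair of cultures, with a chi-square of 18.5 per degree of freedom against at most 1.09 between technical replicates, and were kept as separate cultures. In bulk cultures, fewer cells of a type and less RNA per cell cannot be told apart.

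Across the 17 cultures the members spanned a wide range of abundance, compared here as CPM per kilobase of merged exon. Smo, the signal transducer, was the most abundant at a median of 26.8 (lowest 9.59, highest 32.1). Gli3, the Gli protein that acts mainly as a repressor, followed at 4.54 (2.53 to 7.39). Smo was above Gli3, and Gli3 above Sufu, in 17 of 17 cultures. Sufu, Gli2 and Ptch1 had medians of 1.13, 0.819 and 0.786 and did not keep a fixed order. Sufu was above Gli2 in 13 of 17 cultures and Gli2 above Ptch1 in 9 of 17. Ptch1 was above Gli1 in 17 of 17 cultures. Gli1 (median 0.0872), Hhip (0.0194) and Ihh (0.0156) lay lowest, with overlapping ranges. The readout genes differed in depth: Ptch1 had 28 to 361 counts per culture, Gli1 had 3 to 37 and Hhip 0 to 35.

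**Figure D1:**
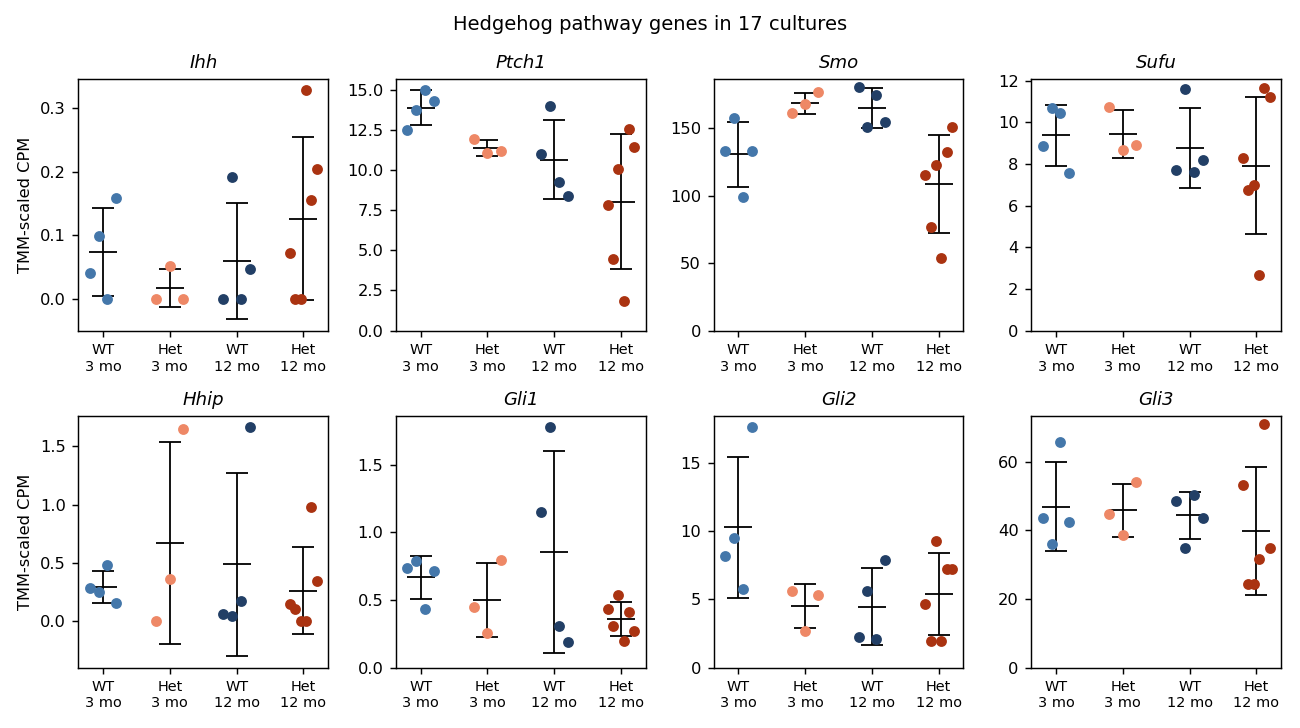
Level of each Hedgehog gene in CPM on the vertical axis (a separate scale for each gene), in the 4 groups on the horizontal axis. Each point is 1 culture and the bars are the mean ± SD. Smo at 12 months lies between 151 and 180 CPM in WT and between 53.9 and 151 CPM in Het, and Ptch1, Smo and Sufu share their lowest point, Het 12M S15.

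Ihh, the ligand of the growth plate, was barely detected. It had 28 counts in all 17 cultures together and 0 counts in 7 of them, where a count of 0 allows up to 0.132 to 0.172 CPM (3 counts, for counting error only). In WT 3M it was 0.0410, 0.0985, 0 and 0.158 CPM in S3, S4, S5 and S12. In Het 3M only S10 had a count, at 0.0516 CPM. In WT 12M it was 0.192 CPM in S6 and 0.0475 CPM in S13, and 0 in S2 and S7. In Het 12M the cultures ran from 0 to 0.327 CPM with a median of 0.114. All groups overlapped, and Ihh did not reach the count filter, so no difference was tested. Of the other ligands, Shh had 0 counts in 16 of 17 cultures and was not tested either. Dhh (Desert hedgehog) was detected in all 17.

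Ptch1, the receptor and a target of the pathway, was lower in every Het 3M culture than in any WT 3M culture. It measured 12.46, 13.75, 15.001 and 14.28 CPM in WT 3M S3, S4, S5 and S12 and 11.94, 11.04 and 11.15 CPM in Het 3M S8, S10 and S14. The fitted difference, Het minus WT, was -0.31 ± 0.46 on the log2 scale (adjusted p = 1.00), smaller than its error. At 12 months the groups overlapped. WT 12M cultures measured 10.97, 13.98, 9.23 and 8.41 CPM (S2, S6, S7 and S13). Het 12M ran from 1.83 to 12.6 CPM with a median of 8.96, and the fitted difference was -0.37 ± 0.39 (adjusted p = 0.798).

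Smo, the membrane protein that passes the signal on, showed opposite genotype differences at the 2 ages. At 3 months it measured 134, 158, 98.9 and 133 CPM in WT (S3, S4, S5 and S12) and 162, 168 and 177 CPM in Het (S8, S10 and S14), so that every Het culture was above every WT culture. The difference was 0.36 ± 0.29 (adjusted p = 1.00), and 0.22 without WT 3M S5. At 12 months it measured 180, 151, 175 and 155 CPM in WT (S2, S6, S7 and S13). The 6 Het cultures ran from 53.9 (S15) and 76.8 (S9) to 151 CPM (S17) with a median of 119, and only S17 reached the lowest WT culture. The difference was -0.59 ± 0.25 (p = 0.031, adjusted p = 0.523 by edgeR's quasi-likelihood test). Between ages, all Het 12M cultures lay below all Het 3M cultures (-0.61 ± 0.27, p = 0.041, adjusted p = 1.00), while WT 12M against WT 3M gave 0.33 ± 0.27 (adjusted p = 0.730). The genotype by age interaction, the Het minus WT difference at 12 months less that at 3 months, was -0.94 ± 0.39 (p = 0.027, adjusted p = 0.705). The difference at 12 months ranged from -0.81 to -0.41 over all alternatives, those without S9, S15 or S6 included, and passed in none.

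Sufu, which retains Gli proteins, had overlapping groups in every comparison. At 3 months its mean was 9.38 ± 1.47 CPM in WT (SD, n = 4) and 9.45 ± 1.13 CPM in Het (n = 3). At 12 months it was 8.78 ± 1.91 CPM in WT (n = 4) and 7.92 ± 3.30 CPM in Het (n = 6). Its fitted differences lay between -0.22 and -0.01 in the 5 contrasts, each smaller than its SE. The lowest culture was again Het 12M S15, at 2.68 CPM.

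Hhip, a membrane protein that binds Hedgehog ligands and is induced by the pathway, was unevenly detected. It was 0.287, 0.246, 0.481 and 0.158 CPM in WT 3M S3, S4, S5 and S12, and 0, 0.361 and 1.65 CPM in Het 3M S8, S10 and S14. WT 12M S13 had 1.66 CPM while S2, S6 and S7 had 0.0574, 0.0480 and 0.176 CPM. Het 12M ran from 0 to 0.983 CPM with a median of 0.124. One culture in each of Het 3M and WT 12M thus carried most of the group's counts. Its SEs were 1.30 to 1.91 log2 units, the widest among the members, and its adjusted p was 0.887 or more in every contrast. A count of 0 in S8, S11 and S15 allows up to 0.147 to 0.196 CPM.

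Gli1, a direct target and activator, was low throughout. It measured 0.738, 0.788, 0.433 and 0.712 CPM in WT 3M S3, S4, S5 and S12 and 0.448, 0.258 and 0.796 CPM in Het 3M S8, S10 and S14. At 12 months WT was split, with 1.15 and 1.78 CPM in S2 and S6 and 0.308 and 0.190 CPM in S7 and S13, while Het 12M ran from 0.196 to 0.539 CPM with a median of 0.363. The difference at 12 months, -1.40 ± 0.56 (p = 0.024, adjusted p = 0.496), was the largest of a member at that age, and the groups overlapped. It was -0.80 without WT 12M S6, -0.62 without the 3 cultures that stood apart and -0.27 with voom quality weights. S6, the highest Gli1 culture, also had the highest sums of smooth muscle and pericyte markers (7064 CPM) and of proliferation markers (445 CPM). It is the one with 1176 CPM of Schwann markers, while S2, the next highest for Gli1, had 71.8 CPM of them. Among the genes with the pattern most like that of Gli1 over the 17 cultures were Pcdh20 (r = 0.85) and Erbb3 (r = 0.83), and Erbb3 is on that marker list. The part of any of these cell types in the Gli1 value was not tested.

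Gli2, the main activator, was lower in all 3 Het 3M cultures than in all 4 WT 3M cultures. It measured 8.20, 9.51, 5.72 and 17.6 CPM in WT 3M S3, S4, S5 and S12 and 5.62, 2.68 and 5.29 CPM in Het 3M S8, S10 and S14. The difference was -1.19 ± 0.63 (p = 0.079, adjusted p = 1.00), and S12 was the highest of all 17 cultures. Without it the difference was -0.80. In WT, Gli2 was also lower at 12 months, at 2.24, 5.62, 2.11 and 7.89 CPM in S2, S6, S7 and S13 (-1.20 ± 0.57, p = 0.054, adjusted p = 0.651). The ages overlapped. This difference passed with voom quality weights (-1.73, adjusted p = 0.0307), the only alternative in which a member passed. In that fit 1159 of all 14897 genes passed for age in WT. Without WT 3M S12 the age difference of Gli2 was -0.84 by edgeR. Het 12M ran from 1.96 to 9.30 CPM with a median of 5.93, and its difference from WT 12M was 0.37 ± 0.54 (adjusted p = 0.863).

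Gli3 also had overlapping groups in every comparison. At 3 months the WT cultures measured 43.5, 35.9, 65.6 and 42.4 CPM (S3, S4, S5 and S12) and the Het cultures 44.8, 38.6 and 54.0 CPM (S8, S10 and S14). At 12 months the WT cultures measured 48.6, 34.9, 50.3 and 43.7 CPM (S2, S6, S7 and S13). The Het cultures ran from 24.2 to 70.9 CPM with a median of 33.1, the widest spread of the 4 groups. Its differences lay between -0.19 and -0.03 in the 5 contrasts, each smaller than its SE.

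**Figure D2:**
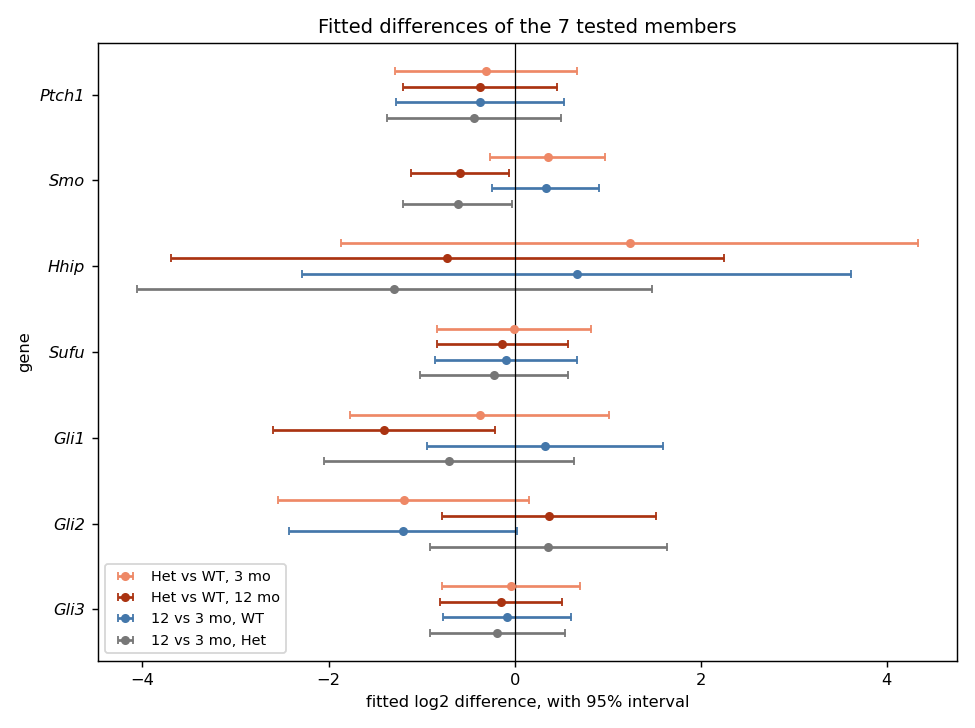
Fitted log2 difference of each tested member on the horizontal axis, with its 95% interval, for the 4 group comparisons. Smo and Gli1 at 12 months (Het minus WT, -0.59 and -1.40) and Smo between ages in Het (-0.61) have intervals that leave out 0 before adjustment, and none passed after it.

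Over the 7 tested members, 0 passed the adjusted threshold in each of the 5 contrasts, as did 0 of all 14897 genes (0% called in each). The comparisons share groups, so their members' counts are not independent. At an unadjusted p below 0.05 the members gave 0 at 3 months, where 1.46% of all genes did. At 12 months 2 members, Smo and Gli1, did so, both lower, against 5.41% of all genes lower and 8.7% in either direction. For age in WT the count was 0 against 7.73%. For age in Het it was 1, Smo, lower, against 1.48% lower and 2.22% in either direction. For the interaction it was 1, Smo, against 3.84% lower and 6.5% in either direction. Groups did not overlap for 3 members at 3 months, against 6.78% of all genes. These were Gli2 and Ptch1, lower in Het (3.57% of genes), and Smo, higher in Het (3.21%). They did not overlap for 0 members in Het 12M against WT 12M (1.32%) and 0 in WT 12M against WT 3M (8.1%), and for 1, Smo, in Het 12M against Het 3M (1.91%, and 1.42% lower). At 12 months 6 of 7 members had a negative difference with a median of -0.37, against a median of 0.05 over all genes tested. Without WT 12M S6 it was 5 of 7 (median -0.28, against 0.07 over all genes). Without the 3 cultures that stood apart it was 4 of 7 (median -0.10, against -0.02 over all genes). In either case 1 member was lower at an unadjusted p below 0.05, against 4.80% and 8.41% of all genes lower. At 3 months 5 of 7 members had a negative difference, with a median of -0.03 against -0.01.

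Whether the members varied together over cultures was described by correlations of log2 CPM over the 17 cultures, for all 21 pairs of the 7 tested members. Ptch1 went with Sufu (Pearson r = 0.89, permutation p = 0.00018, adjusted p = 0.00378; Spearman rho = 0.66, permutation p = 0.00412, adjusted p = 0.0865). Ptch1 went with Smo (r = 0.77, permutation p = 0.00376, adjusted p = 0.0360), with a rho of 0.12 (permutation p = 0.660). Ptch1 went with Gli2 (r = 0.61, permutation p = 0.00514, adjusted p = 0.0360; rho = 0.62, permutation p = 0.00906, adjusted p = 0.0951). These 3 of 21 pairs passed. Without Het 12M S15, the culture with least Ptch1, r was 0.63 for Sufu, 0.46 for Smo and 0.56 for Gli2, and no pair passed after adjustment. Without the 2 cultures farthest from the Ptch1 median, r was 0.54 for Sufu, -0.18 for Smo and 0.38 for Gli2. Het 12M S9, the culture rich in myeloid markers, was the next lowest for Ptch1 at 4.46 CPM. None of the pairs among the usual readouts passed: Ptch1 with Gli1 gave r = 0.53 (permutation p = 0.0282, adjusted p = 0.0987), Ptch1 with Hhip r = 0.31 (permutation p = 0.234) and Gli1 with Hhip r = -0.19 (permutation p = 0.472). The likest genes below were picked as the 3 with the highest r among 13636 named genes, over all 17 cultures. Their r was not computed again without Het 12M S15. The genes most like Ptch1 were Ston1 (r = 0.96), Atp8b2 (0.95) and Creb3l2 (0.94). Those most like Smo were Farp2, Hspb6 and Iqck, at 0.93, 0.93 and 0.92. For Sufu they were Carm1, Nisch and Mfsd4a at 0.94 each, and for Gli2 Ece1, Unc5b and Bcor at 0.93, 0.91 and 0.88. For Gli3 they were Zc3h12b, Ccdc158 and Cc2d2a, at 0.95, 0.89 and 0.88, and for Hhip Cep112, Zfp791 and Cc2d2a, at 0.77, 0.74 and 0.74.

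**Figure D3:**
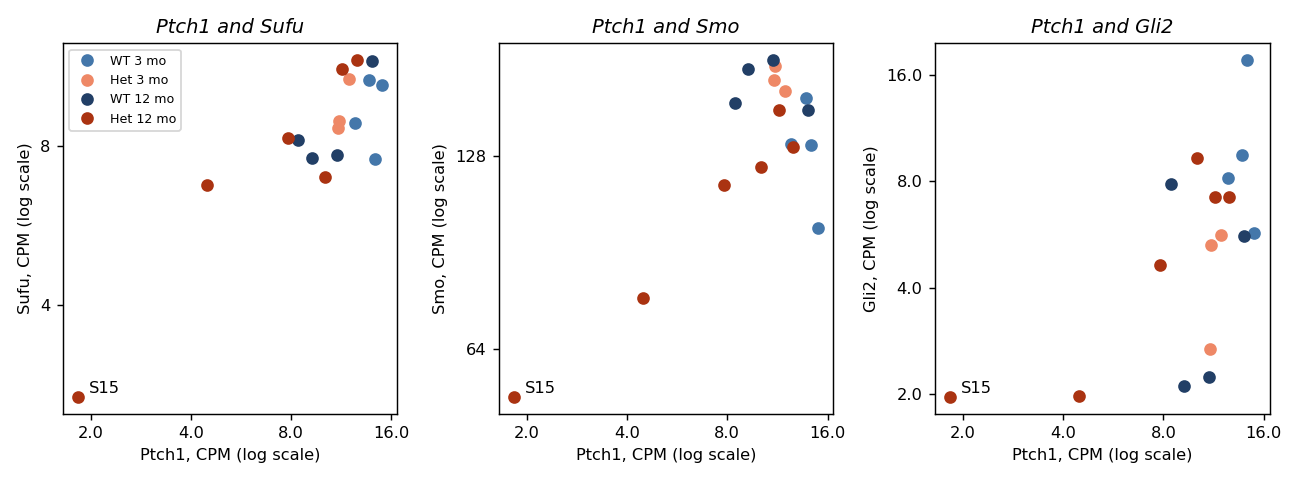
Ptch1 on the horizontal axis against Sufu, Smo and Gli2 on the vertical axes, in CPM on log scales. Each point is 1 culture, coloured by group. S15, at 1.83 CPM of Ptch1, lies apart in the lower left of each panel, and r without it is 0.63 for Sufu, 0.46 for Smo and 0.56 for Gli2.

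A wider list of 55 genes covered ligand release, receptors, cilium and Smoothened regulation, Gli regulation, targets and partners of Ihh, of which 52 were tested and 0 passed the adjusted threshold in any of the 5 contrasts. This list, too, was chosen with earlier results of these data known. Of the 52, 1 had an unadjusted p below 0.05 at 3 months (1.46% of all genes), 8 in Het 12M against WT 12M, all lower (5.41% lower), 5 for age in WT (7.73%), 4 for age in Het, all lower (1.48% lower) and 6 for the interaction, all lower (3.84% lower). In Het 12M against WT 12M, 35 of the 52 differences were negative with a median of -0.22, while 54.4% of all genes had a positive difference. Without WT 12M S6, 33 of 52 were negative (median -0.25), while 56.6% of all genes were positive. Without the 3 cultures that stood apart, 32 of the 51 still tested were negative (median -0.21), while 48.6% of all genes were positive. At an unadjusted p below 0.05, 8 were lower without S6 (4.80% of all genes lower). Without the 3 cultures 7 were lower (8.41% of all genes) and 2 higher (982 of 14687 genes). Of the 7 genes of ligand release, 7 were negative with all cultures (Disp1 only -0.01), 6 without S6 and 5 without the 3 cultures. Of the 4 partners of Ihh, 4 were negative with all cultures, 4 without S6 and 2 without the 3. In the same order, 4, 4 and 5 of 5 receptors were negative. For cilium and Smoothened regulation it was 7, 7 and 9 of 14 genes, and for Gli regulation 6, 6 and 5 of 10. For targets it was 7 and 6 of 12, then 6 of the 11 still tested. At 3 months 25 of the 52 were negative.

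Pth1r, the receptor of parathyroid hormone and of the peptide that Ihh works with, had the smallest interaction p of the wider list, with opposite genotype differences at the 2 ages. It measured 26.4, 30.0, 31.2 and 42.4 CPM in WT 3M S3, S4, S5 and S12, and 56.6, 57.6 and 96.3 CPM in Het 3M S8, S10 and S14. At 12 months it measured 122, 46.2, 120 and 65.9 CPM in WT S2, S6, S7 and S13, while Het ran from 23.6 to 49.4 CPM with a median of 35.0. So every Het 3M culture was above every WT 3M culture, 1 of 7 genes of the 52 without overlap at that age (6.78% of all genes). At 12 months all Het cultures but S16 were below all WT cultures. The Het minus WT difference was 1.11 ± 0.36 at 3 months (p = 0.0068, adjusted p = 0.9999). It was -1.33 ± 0.31 at 12 months (adjusted p = 0.176, and 0.0163 with DESeq2). For 12 against 3 months it was 1.45 ± 0.34 in WT (adjusted p = 0.382) and -0.99 ± 0.33 in Het (adjusted p = 1.00). The WT age difference passed with DESeq2 (adjusted p = 0.0218), with voom (0.00159) and without the 3 cultures that stood apart (0.0492). The interaction was -2.44 ± 0.47 (p = 0.00011, adjusted p = 0.398), the second smallest p of all 14897 genes, and it passed with DESeq2 (adjusted p = 0.00419), with voom (0.0153) and without the 3 cultures that stood apart (0.0454). Without Het 3M S14 the difference at 3 months was 0.72 and that between ages in Het was -0.52. Summed over 8 osteoblast markers, the 3-month cultures had 944 to 1801 CPM (WT) and 2005 to 6840 CPM (Het), and the 12-month cultures 1170 to 7703 CPM (WT) and 1100 to 5353 CPM (Het). Summed over 8 chondrocyte markers, the 3-month cultures had 2208 to 10334 CPM (WT) and 3831 to 17080 CPM (Het), and the 12-month cultures 3197 to 22093 CPM (WT) and 2422 to 4020 CPM (Het). Their part in the Pth1r values was not tested.

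Evc, a membrane protein of the cilium that works with Smoothened, had 12-month groups that did not overlap. So did Prkaca, which made 2 of the 52 genes, against 1.32% of all genes. Evc measured 107, 64.3, 102 and 78.9 CPM in WT 12M (S2, S6, S7 and S13), and the 6 Het 12M cultures ran from 43.2 to 60.7 CPM. The difference was -0.80 ± 0.20 (adjusted p = 0.228) and ranged from -1.003 to -0.66 over the alternatives. It passed with DESeq2 (adjusted p = 0.0471). Its partner Evc2 gave -0.57 ± 0.20 (adjusted p = 0.424) and overlapped. The interaction was -1.17 ± 0.31 for Evc (adjusted p = 0.415, and 0.0375 with voom) and -0.70 ± 0.31 for Evc2.

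Dhh, Scube3 (which helps to release ligand) and Col10a1 (collagen of hypertrophic cartilage) had 12-month differences that shrank without 1 culture, WT 12M S6. Dhh was 18.7 CPM in WT 12M S6 and at most 1.23 CPM in the 16 others, and Scube3 18.3 CPM in S6 against at most 3.36. The differences at 12 months, -3.69 ± 0.71, -2.03 ± 0.64 and -2.65 ± 0.90, became -1.75, -0.54 and -0.24 without S6. Dhh thus kept part of its difference (adjusted p = 0.422 by edgeR's quasi-likelihood test). With all cultures, Dhh passed with DESeq2 (adjusted p = 0.00046). Desert hedgehog is known to be made by Schwann cells. The summed Schwann markers of S6 are given above, and the part of such cells was not tested. In the interaction Dhh gave -4.08 ± 1.11, Scube3 -2.82 ± 1.00 and Nkx3-2, a chondrocyte regulator, -2.88 ± 1.03. Without WT 12M S6 this was -1.84 for Dhh and -1.30 for Scube3, and without Het 3M S14 it was -1.69 for Nkx3-2. For age in WT, Dhh gave 2.56 ± 0.81, Scube3 2.02 ± 0.76, Evc 0.71 ± 0.22 and Gsk3b, a kinase that marks Gli proteins for processing, -0.79 ± 0.27. Without S6 the age differences of Dhh and Scube3 were 0.83 and 0.72, and with voom those of Evc and Gsk3b passed (adjusted p = 0.00766 and 0.0269). For age in Het, Foxf2 gave -1.08 ± 0.48, Nkx3-2 -1.81 ± 0.70 and Runx2, the osteoblast regulator, -0.67 ± 0.31, and without Het 3M S14 these were -0.58, -0.51 and -0.23.

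**Figure D4:**
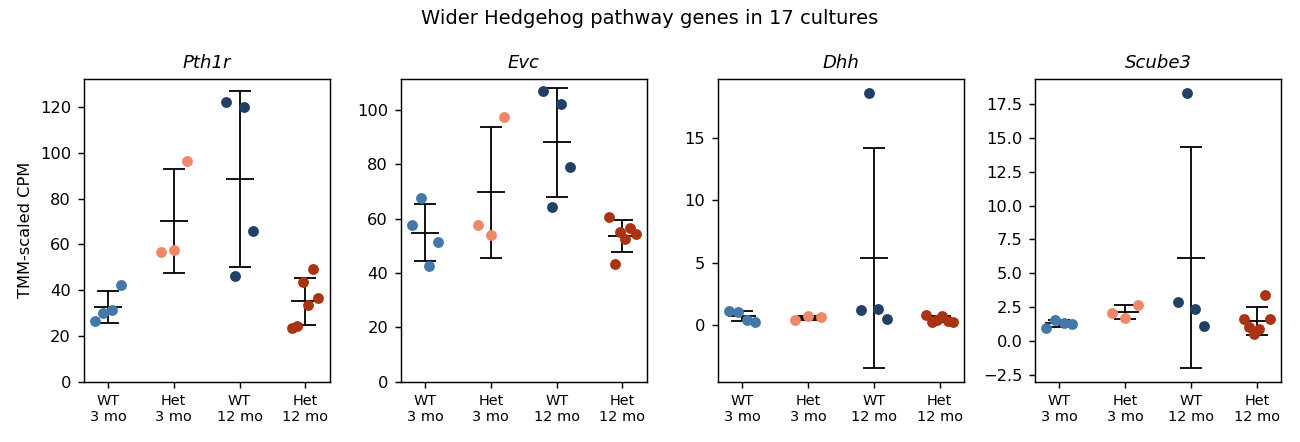
Level of 4 genes of the wider pathway list in CPM on the vertical axis, in the 4 groups on the horizontal axis, with each culture as a point and bars for the mean ± SD. Pth1r is higher in Het at 3 months and in WT at 12 months, Evc does not overlap between the groups at 12 months, and 1 WT 12M culture, S6, holds the high values of Dhh and Scube3.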

How the data were processed

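RNA sequencing of cultured long-bone stromal cells gave raw read counts per gene, deposited by the authors as 1 table of 68 columns. Per the submitters' processing notes, Subread and featureCounts were used with the mm10 build; versions and annotation are not given in the sources used here. The 4 technical replicates of each of the 17 cultures were summed after a check that they differed by little more than counting error. Genes were matched to symbols through RefSeq, of which 25275 identifiers matched, and the rest held 0.573% of the counts. Levels are CPM with library sizes adjusted by TMM (trimmed mean of M values).

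One fit over all cultures was made with R 4.3.3 and edgeR 4.0.16, with the filterByExpr filter, a term for each group and for the labelled sex, the 2-sided quasi-likelihood F-test and Benjamini-Hochberg adjustment over 14897 genes, threshold 0.05. Log2 differences are given ± SE. Correlations used log2 CPM with a prior count of 2 and 100000 permutations, adjusted over 21 pairs. Merged exon lengths came from GENCODE. The fit was tested on simulated data, with changes larger than any member difference here and placed in the more abundant genes. That test does not show how the fit does for smaller differences or low counts. The members were listed by pathway, not by value, but they and the wider list were chosen with earlier results of these data known. Genes named in full had an unadjusted p below 0.05 or the smallest p of a contrast, with at most 6 per contrast from the wider list. Alternatives were DESeq2 1.42.0, voom with quality weights (limma 3.58.1), other scalings, filters and sex terms, the 2 groups compared alone, leaving out 3 cultures that stood apart, and each culture in turn. Counts over the members and the wider list without WT 12M S6 and without those 3 cultures were added after seeing the data. A result on likeness to Gli1 is not reported here.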

Additional observations from a re-analysis of the deposited data

Results flagged for a closer look

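A culture lay far from the rest of its group in 6 of 54 gene and group combinations examined. The gap rule used marks about 1 in 20 by chance for normally distributed values, and it was applied to untransformed CPM. The genes of the wider list were included for their unadjusted p in these same data. The 6 of 54 can therefore not be set against 1 in 20. Hhip was 1.66 CPM in WT 12M S13, against 0.176 CPM in the next culture, and 0.983 CPM in Het 12M S16, against 0.340 CPM. WT 12M S6 was apart for 4 genes: Sufu at 11.6 CPM, Dhh at 18.7 CPM, Scube3 at 18.3 CPM and Col10a1 at 99.2 CPM, with next values of 8.22, 1.23, 2.87 and 7.18 CPM. S6 is also the culture with the highest sums of Schwann and neural crest, smooth muscle and pericyte, and proliferation markers, and the cause was not tested.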

How the results depend on the processing

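Of all 35 member differences, 17 changed sign in at least 1 alternative, Ptch1 at 12 months among them (1 of 27 alternatives). The 8 with an unadjusted p below 0.05, the smallest p of a comparison or groups that did not overlap did so in 0. Over the alternatives, other sex terms included, the Het minus WT difference at 12 months ranged from -1.78 to -0.27 for Gli1. For Pth1r it ranged from -1.60 to -1.05. The cause of each shift below was not tested. The count of members called moved in 1 case, from 0 to 1 for 12 against 3 months in WT with voom quality weights. All-gene counts moved from 0 with DESeq2 to 14, 242, 94, 12 and 81 (Het against WT at 3 and at 12 months, 12 against 3 months in WT and in Het, interaction), and with voom to 21, 6, 1159 and 326 (the same without age in Het). Het 12M against WT 12M gave 3 without a filter. Leaving out the 3 cultures that stood apart gave 30 for age in WT and 38 for the interaction. Leaving out 1 culture in turn gave 0 to 3 for Het 12M against WT 12M and 0 to 2 for age in WT. The 3 correlated pairs became 5 with group-centred values, 0 by Spearman rho, 0 without the 3 cultures, 0 without the 2 farthest, and 0 to 4 leaving out 1 culture in turn (1 without WT 3M S4, 1 without Het 12M S9, 0 without Het 12M S15). Col10a1 at 12 months reversed to 0.20 without the 3 cultures. No paired analysis was possible because no S number is shared by 2 groups and the technical replicates are repeats of 1 culture. Counts of 3 to 37 for Gli1 and 0 to 35 for Hhip limit what can be detected for these genes.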
